A study of Mus musculus with 6 samples.

Results

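Vascular cells start, restrain and reverse clotting through a small set of surface and secreted proteins, and 8 genes that encode such regulators were examined here. They were chosen by name as coagulation and fibrinolysis regulators: F3, Tfpi, Thbd, Procr, Vwf, Plat, Plau and Plaur. All 8 were among the 13595 genes of the deposited expression table. RNA had been sequenced from primary cultures of CD31-positive liver cells, taken from C57BL6/J mice aged 4 weeks. CD31 is an endothelial surface protein encoded by Pecam1. The table compares 3 libraries labelled male with 3 labelled female, numbered 4, 5 and 6 in each group. Both groups had been given 100 µM indoxyl sulfate, a uremic solute made from tryptophan that activates the aryl hydrocarbon receptor, and had been held for 6 hours in hypoxia with nutrient deprivation. Because all 6 libraries carried the ligand and the hypoxia, the effect of neither was analysed here, and the contrast is that of the sex label under treatment.

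Tissue factor (F3) starts clotting by binding factor VII, and tissue factor pathway inhibitor (Tfpi) blocks that complex together with factor X. Thrombomodulin (Thbd) turns thrombin from a clotting enzyme into the activator of the anticoagulant protein C, which the endothelial protein C receptor (Procr) binds at the cell surface. Von Willebrand factor (Vwf) tethers platelets and carries factor VIII, and is a classical endothelial product stored in Weibel-Palade bodies. Tissue-type and urokinase-type plasminogen activators (Plat and Plau) make plasmin, which dissolves fibrin, and the urokinase receptor (Plaur) holds urokinase at the cell surface. Indoxyl sulfate is known as a prothrombotic solute that raises tissue factor in vascular cells.

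Promoter sequence for 4 of the 8 genes was found in the RefSeq set used (GRCm38.p6), and the 250 bases before each annotated start are shown. The set held no entry for Thbd, Vwf, Plat and Plau, so no motif was searched there. Of the 4 genes shown, 3 differed in the same direction between the groups and the other, Tfpi, was not called. Each is written 5′ to 3′ on the strand of the gene. Capitals mark matches on either strand to TGANTCA, the AP-1 element, and to GGGCGG, the GC box of SP1 and Kruppel-like factors.
F3 (GRCm38.p6, chr3:121723287-121723536, plus strand): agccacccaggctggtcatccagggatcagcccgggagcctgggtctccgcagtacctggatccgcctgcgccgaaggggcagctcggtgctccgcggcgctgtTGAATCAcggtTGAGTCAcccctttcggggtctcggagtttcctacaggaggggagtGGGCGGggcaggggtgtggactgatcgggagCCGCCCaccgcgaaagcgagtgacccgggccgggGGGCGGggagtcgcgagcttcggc
Plaur (GRCm38.p6, chr7:24462233-24462482, plus strand): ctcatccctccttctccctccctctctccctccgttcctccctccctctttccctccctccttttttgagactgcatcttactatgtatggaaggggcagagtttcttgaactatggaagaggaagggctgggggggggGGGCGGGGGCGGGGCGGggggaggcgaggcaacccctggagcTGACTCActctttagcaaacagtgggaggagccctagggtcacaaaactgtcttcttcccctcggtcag
Procr (GRCm38.p6, chr2:155750967-155751216, plus strand): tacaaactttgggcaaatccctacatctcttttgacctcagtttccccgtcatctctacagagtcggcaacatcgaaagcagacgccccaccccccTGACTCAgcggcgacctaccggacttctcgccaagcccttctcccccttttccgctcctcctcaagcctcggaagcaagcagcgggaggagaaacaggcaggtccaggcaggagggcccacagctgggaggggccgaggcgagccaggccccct
Tfpi, upstream start (GRCm38.p6, chr2:84476760-84477009, minus strand): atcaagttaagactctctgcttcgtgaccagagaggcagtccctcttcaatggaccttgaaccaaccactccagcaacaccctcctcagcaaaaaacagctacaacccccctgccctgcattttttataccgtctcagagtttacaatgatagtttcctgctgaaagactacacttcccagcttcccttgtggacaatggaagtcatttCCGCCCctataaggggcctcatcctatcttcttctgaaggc
Tfpi, downstream start (GRCm38.p6, chr2:84474175-84474424, minus strand): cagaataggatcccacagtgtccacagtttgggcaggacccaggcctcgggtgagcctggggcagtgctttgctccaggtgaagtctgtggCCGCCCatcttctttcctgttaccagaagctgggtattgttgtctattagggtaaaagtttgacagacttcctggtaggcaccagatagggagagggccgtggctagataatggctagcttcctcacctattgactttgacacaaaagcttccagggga

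The F3 window held 2 matches to TGANTCA, starting 146 and 135 bases before the start, and the Plaur and Procr windows held 1 match each, at 69 and 154 bases. Neither Tfpi window held this motif, which occurred in 6.75% of the 32851 promoter windows of this length in the table. GGGCGG occurred 3 times in F3, 3 times in Plaur with overlapping bases, once in each Tfpi window and not in Procr, against 32.7% of all windows. The cores GCGTG, shared by the aryl hydrocarbon receptor and hypoxia-inducible factors, and ACGTG, of hypoxia-inducible factors, were in none of the 5 windows (28.2% and 16.6% of all windows held them). Of the other motifs searched on both strands, GGGNNTTCC (1 form of the NF-kB element, 4.98% of windows) was in none, which does not cover variant NF-kB sites, GCGGGGGCG (EGR1, 2.57%) was once in Plaur, where it overlapped the GC boxes, and TATAAA (12.4%) was once in a Tfpi window. CACCC (Kruppel-like factors, 52.0%) occurred 3 times in F3, once in Procr and in each Tfpi window, and not in Plaur. These matches describe letters in a short window and show no binding.

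The libraries held 27811890 to 31189363 reads if labelled male and 22303270 to 25329421 if labelled female, so depth moved with the label, and values are reads scaled by the authors to a normalized read count. Xist, the RNA of X inactivation, followed the labels (0.124 to 0.458 against 234 to 324), but all 4 Y-linked genes examined were also read in the libraries labelled female, which goes against their label. Ddx3y (52.1 ± 4.93 against 57.0 ± 16.8) and Uty (24.1 ± 3.12 against 26.9 ± 4.41; SD, n = 3) overlapped between the labels, while Eif2s3y (51.3% of the male mean, log2 fold change -0.94) and Kdm5d (54.8%, -0.83) were lower where the label is female (adjusted p 5.75e-06 and 0.000129 by limma). Every direction here is therefore between libraries as labelled. Male 4 stood apart within its group, with a root mean square log2 difference of 0.325 from each other male library, where male 5 and male 6 differed by 0.161. The labels do not say whether replicates are separate mice or wells, so p-values measure the spread between these samples only. Differences between libraries were tested with limma on log2(value + 1) across 12568 genes and adjusted by the Benjamini-Hochberg method. The sex contrast called 69.3% of the tested genes at an adjusted p under 0.05, 34.6% higher and 34.6% lower, so a call alone sets no gene apart.

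All 8 regulators passed the filter on low values, and 7 were called: F3, Thbd, Procr and Plaur were higher, and Vwf, Plat and Plau lower, in the libraries labelled female. Tfpi was not called. The call rate of 7 of 8 is read against the 69.3% of all genes. Of the 8 genes, 4 were both called and changed by a log2 fold change of at least 1, where 20.6% of tested genes did so. F3 and Plaur were the higher ones (8.51% of tested genes were) and Vwf and Plat the lower ones (12.1%). On the recovered reads, edgeR and DESeq2 called the same 7 of 8, against 68.0% and 65.4% of the genes they tested. The median log2 fold change of the 8 genes was 0.21 against 0.01 over all tested genes, and the median size regardless of sign was 1.18 against 0.46. The 2 groups did not overlap for any of the 8 genes, which was the case for 74.1% of tested genes. F3, Vwf, Plat and Plaur, 4 of the 8, had a false discovery rate under 0.05 in the authors' deposited table, where 25.8% of all listed genes did.

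**Figure D1:**
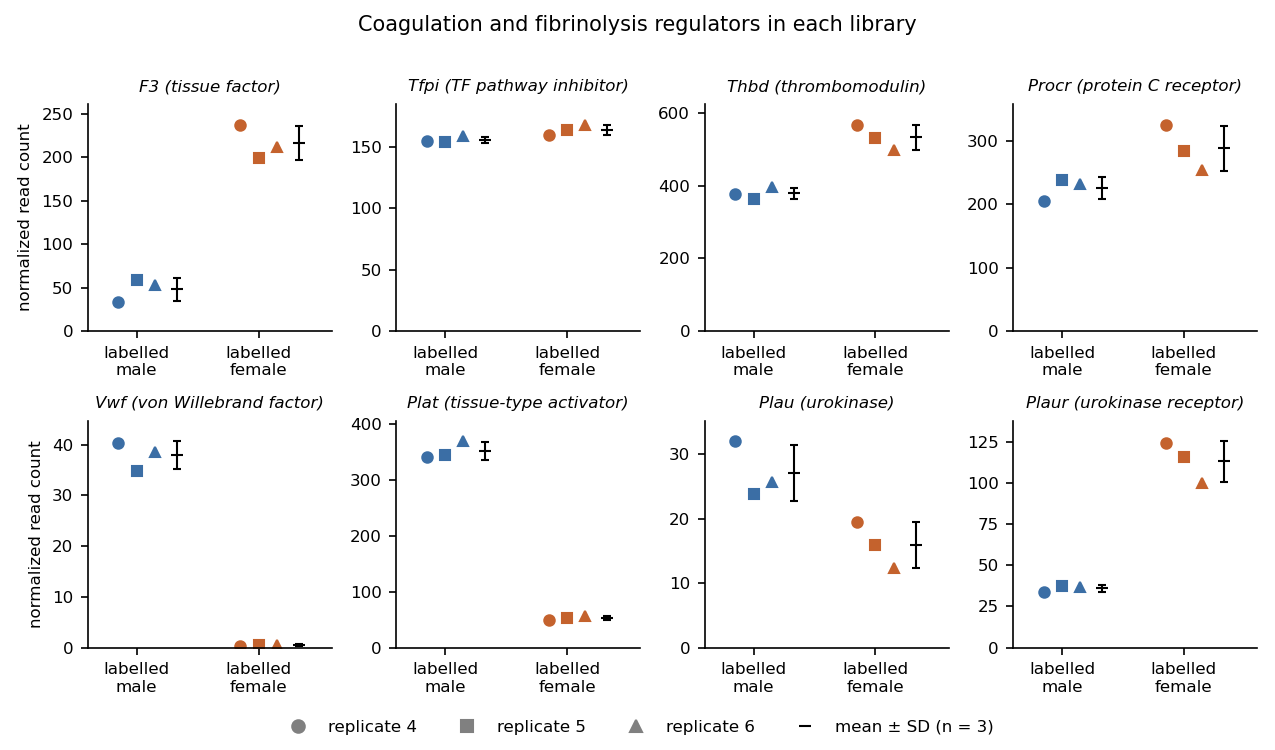
Normalized read count (vertical axes, from 0) of each of the 8 genes in the 3 libraries labelled male (blue) and the 3 labelled female (orange); symbols give the replicate number and dashes the mean ± SD (n = 3). F3 and Plaur stand higher and Vwf and Plat lower in all 3 libraries labelled female, while Tfpi lies between 154 and 168 in all 6.

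F3, the initiator, was the regulator with the largest increase. Its normalized read count was 33.1, 58.2 and 53.2 in male 4, 5 and 6, and 237, 199 and 212 in female 4, 5 and 6. The lowest library labelled female was thus well above the highest labelled male, and male 4 was the low library of its group. The means were 48.2 ± 13.3 and 216 ± 19.3 (SD, n = 3), a 4.49-fold difference, or 2.18 on the log2 scale with SE 0.19 (adjusted p 1.61e-05 by limma). Among 12568 tested genes, F3 ranked 170 from the highest. Without male 4 its log2 fold change was 1.93. At 797 to 5717 reads per library, counting error was small beside the spread between libraries.

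Tfpi, which opposes tissue factor, was nearly level. It was read at 155, 154 and 159 in the libraries labelled male and 160, 164 and 168 in those labelled female. The groups did not overlap but lay within a narrow span. The log2 fold change was 0.07 with a 95% confidence interval from -0.05 to 0.19 (limma adjusted p 0.256), which leaves room for a ratio between 0.97 and 1.14. Under quantile normalization, where the median of all genes moved to 0.08, Tfpi was called higher (0.17, limma adjusted p 0.0265).

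The ratio of F3 to Tfpi within a library does not depend on how libraries were scaled. Per kilobase of the longest annotated transcript it was 0.452, 0.801 and 0.710 in the libraries labelled male and 3.14, 2.58 and 2.67 in those labelled female. F3 was therefore below Tfpi in every library labelled male and above it in every library labelled female. The ratio was 4.38-fold higher on average (log2 difference 2.13, SE 0.27, exact two-sided permutation p 0.1, the smallest that 3 against 3 allows). This and the other ratios given were picked with the values known.

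Thbd and Procr, which take part in activating protein C at the cell surface, were modestly higher. Pros1, the cofactor of the activated enzyme, was lower by more (-0.82 on the log2 scale). Thbd was read at 377, 364 and 396 in the libraries labelled male and 569, 532 and 500 in those labelled female. The gap between groups was wider than the span within either. Thbd thus differed by 0.49 on the log2 scale, with SE 0.07 (adjusted p 0.000271 by limma), or 1.41-fold by means. Procr was read at 205, 237 and 232 in the libraries labelled male and 325, 284 and 254 in those labelled female, where female 6 came close to male 5. Procr differed by 0.35, with SE 0.10 (adjusted p 0.0126 by limma), or 1.28-fold. Among all tested genes, 47.1% changed by more than Thbd and 59.3% by more than Procr, so neither change was large for this contrast. In the authors' deposited table neither was called, with false discovery rates of 0.436 and 0.270.

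Thbd and Procr differed by less than F3. Per kilobase, Thbd stood above F3 in each library, by 5.74, 3.14 and 3.74 times in those labelled male and by 1.21, 1.34 and 1.19 times in those labelled female. The ratio of Thbd to F3 was thus 3.28-fold lower in the libraries labelled female (log2 difference -1.71, SE 0.27, exact two-sided permutation p 0.1). The ratio of Procr to Thbd differed by -0.14 on the log2 scale (SE 0.09, exact two-sided permutation p 0.2, where 0.1 is the smallest possible), and the groups overlapped.

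**Figure D2:**
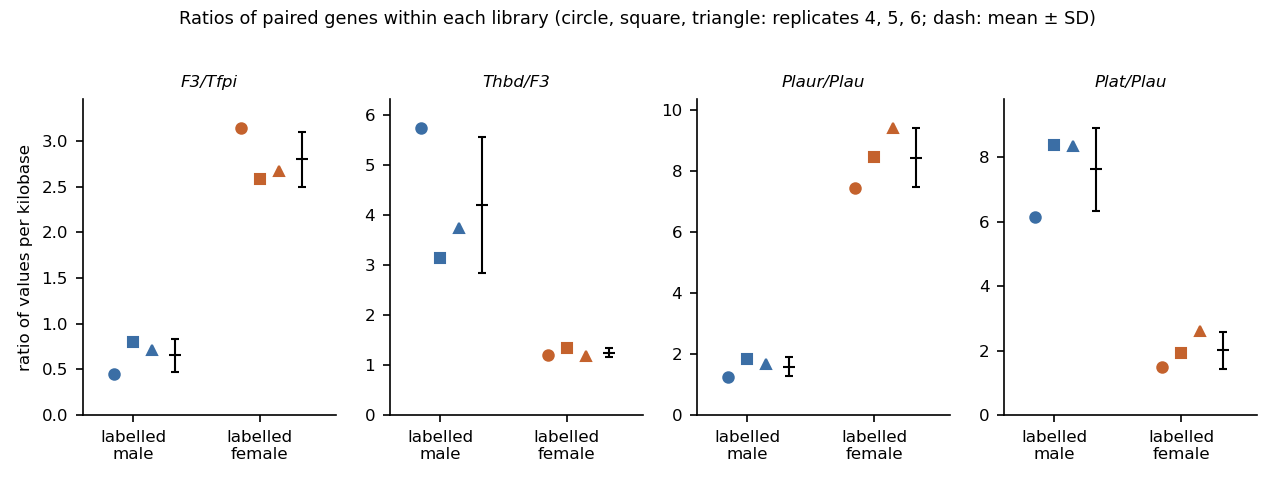
Ratios of values per kilobase (vertical axes, from 0) within each library for F3 to Tfpi, Thbd to F3, Plaur to Plau and Plat to Plau; symbols give replicates 4, 5 and 6 and dashes the mean ± SD (n = 3). None of the 4 ratios overlaps between libraries labelled male (blue) and female (orange), and male 4 has the lowest F3 to Tfpi ratio, 0.452.

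Vwf showed the largest difference of the 8 genes. It was read at 40.3, 34.9 and 38.6 in the libraries labelled male, or 915 to 1093 reads. In the libraries labelled female it was at 0.374, 0.530 and 0.570, which is 9, 12 and 12 reads. The transcript was thus detected in every library but close to the limit in those labelled female, where the exact 95% Poisson interval for 9 reads runs from 4.12 to 17.1 and covers counting error only. The means of 37.9 ± 2.77 and 0.491 ± 0.104 (SD, n = 3) differ 77.2-fold. On the log2 scale the difference was -4.71 with SE 0.11 (adjusted p 2.04e-08 by limma), at rank 27 from the lowest of all tested genes. The added 1 shrinks this value: with 0.1 it was -6.02, and edgeR on the recovered reads gave -6.28 (adjusted p 3.01e-08).

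Endothelial markers moved with Vwf. Of 17 tested endothelial markers, 14 were lower and 2 higher in the libraries labelled female, and the 20 listed markers in the table, tested or not, summed to 2496 to 2583 against 1319 to 1382. Pecam1 itself was at 407 ± 16.2 against 73.9 ± 0.540 (SD, n = 3), and Cdh5, a junction protein of endothelium, at 924 ± 5.58 against 387 ± 11.9. Both stayed well above the limit of detection in all libraries. The 2 markers called higher were Eng, a coreceptor of endothelium (313 ± 21.3 against 415 ± 13.9), and Ptprb, a phosphatase of endothelial junctions (4.71 ± 0.628 against 62.3 ± 4.11). In bulk RNA, fewer cells of a type and less RNA per cell cannot be told apart, and the part of endothelial content in the Vwf difference was not tested. Ratios of Vwf to single endothelial genes depended on the gene: the ratio was 14.3-fold lower in the libraries labelled female for Pecam1, 32.8-fold for Cdh5 and 104-fold for Eng (exact two-sided permutation p 0.1 for each). These 3 do not span the list, since the means of Tie1 (10.1-fold lower) and Egfl7 (18.9-fold lower) fell by more than that of Pecam1 (5.50-fold). Ratios of Vwf to such genes would be nearer to 1 and were not taken. Of 3 tested platelet and megakaryocyte markers, another source of Vwf, all 3 were lower, and the 4 listed markers in the table summed to 34.6 to 46.7 against 3.66 to 4.81. Itga2b fell from 32.1 ± 4.79 to 1.77 ± 0.667 and Pf4 from 5.72 ± 1.18 to 1.40 ± 0.183 (SD, n = 3). Their part in the Vwf difference was not tested.

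Genes that store, release or cleave Vwf were mostly lower too, but by less. Of 6 tested, 5 were lower and 1 higher, with a median log2 fold change of -0.53. Selp, the platelet adhesion receptor stored beside Vwf, was at 759 ± 33.4 against 568 ± 53.6 (SD, n = 3), which is -0.42 on the log2 scale. Cd63, another granule protein, had a log2 fold change of -0.29, and Rab3d, a GTPase of granule release, -1.10. Adamts13, the protease that cuts Vwf, was the gene called higher (0.59). Selp and Cd63 were thus abundant in the same libraries where Vwf was near its limit of detection.

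Plat, the fibrin-bound activator, was the other strong decrease. It was read at 340, 344 and 369 in the libraries labelled male and 49.5, 53.2 and 56.0 in those labelled female. Replicates were tight and the groups lay far apart. The means, 351 ± 15.6 and 52.9 ± 3.27 (SD, n = 3), differed 6.63-fold, or by -2.71 on the log2 scale with SE 0.07 (adjusted p 2.72e-08 by limma), at rank 233 from the lowest. Its ratio to single endothelial genes was 1.21-fold lower in the libraries labelled female for Pecam1, 2.78-fold for Cdh5 and 8.79-fold for Eng (exact two-sided permutation p 0.1 for each). Against Tie1 and Egfl7 Plat was not lower, since their means fell by more (10.1-fold and 18.9-fold, against 6.63-fold). The ratio of Plat to endothelial genes thus depended on the gene, in direction as well as size. The part of endothelial content in the Plat difference was not tested.

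Plau and its receptor went in opposite directions. Plau was read at 32.0, 23.8 and 25.6 in the libraries labelled male and 19.4, 15.9 and 12.4 in those labelled female. The lowest male and the highest female library lay close together, and male 4 and female 6 were the extremes. Plau was 1.70-fold lower, or -0.74 on the log2 scale with SE 0.17 (adjusted p 0.00394 by limma), and 30.5% of tested genes changed by more. In the authors' deposited table Plau was not called, with a false discovery rate of 0.49. Plaur was read at 33.8, 37.4 and 36.7 in the libraries labelled male and 124, 116 and 100.0 in those labelled female. No library labelled female came near the male range. Plaur was 3.15-fold higher, or 1.62 on the log2 scale with SE 0.09 (adjusted p 1.31e-06 by limma), at rank 385 from the highest. Per kilobase, the ratio of receptor to ligand was 1.23, 1.83 and 1.67 in the libraries labelled male and 7.46, 8.48 and 9.40 in those labelled female, a 5.40-fold difference (log2 2.43, SE 0.20, exact two-sided permutation p 0.1).

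Plat also exceeded Plau by less in the libraries labelled female. Per kilobase Plat was 6.15, 8.39 and 8.34 times Plau in the libraries labelled male and 1.48, 1.94 and 2.62 times Plau in those labelled female. The order of the activators was therefore the same in all 6 libraries.

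**Figure D3:**
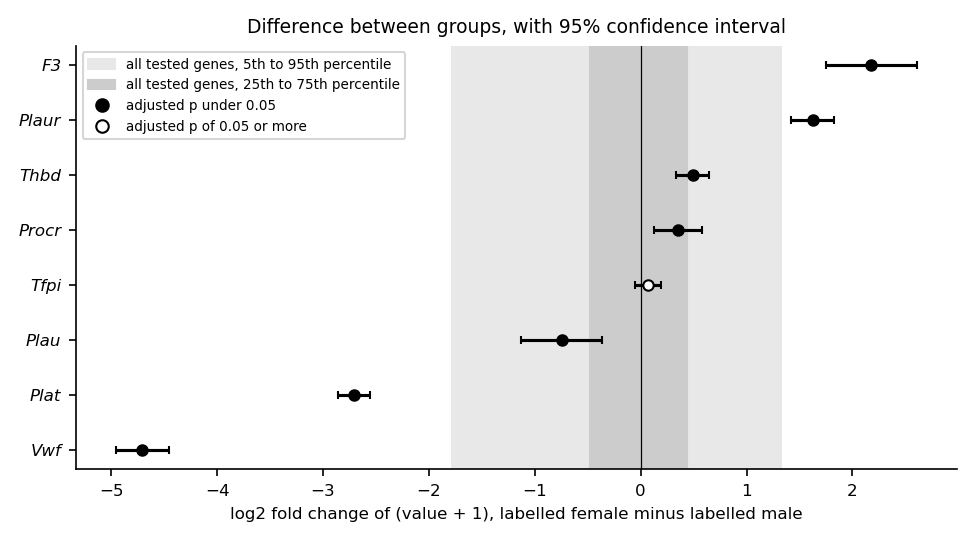
Log2 fold change of (value + 1), labelled female minus labelled male (horizontal axis), with its 95% confidence interval from limma for each of the 8 genes; grey bands give the middle of all 12568 tested genes. F3 (2.18) and Plaur (1.62) lie right of the 95th percentile, Vwf (-4.71) and Plat (-2.71) left of the 5th, and the interval of Tfpi spans 0.

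Levels of the 8 genes can be ordered per kilobase. In the libraries labelled male the order of mean values per kilobase was Procr (140 ± 10.9), Thbd (102 ± 4.33), Plat (86.8 ± 3.86), Tfpi (39.3 ± 0.628), F3 (25.7 ± 7.12), Plaur (17.9 ± 0.932), Plau (11.6 ± 1.85) and Vwf (4.29 ± 0.314) (SD, n = 3). The values of F3 and Plaur overlapped there and those of the other neighbours did not. In the libraries labelled female it was Procr (179 ± 22.3), Thbd (143 ± 9.24), F3 (116 ± 10.3), Plaur (56.4 ± 6.15), Tfpi (41.4 ± 1.04), Plat (13.1 ± 0.810), Plau (6.79 ± 1.5) and Vwf (0.0556 ± 0.0118), with no overlap between neighbours. F3 and Plaur thus moved above Tfpi, Plat moved below Tfpi, and Procr, Thbd, Plau and Vwf kept their places.

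Some regulators varied together among libraries of a group. Female 4 held the highest and female 6 the lowest value of Thbd, Procr, Plau and Plaur, whereas Tfpi, Vwf and Plat were lowest in female 4 and highest in female 6. Depth fell in the same order, with 25329421, 23985846 and 22303270 reads in female 4, 5 and 6. In the libraries labelled male, Thbd was highest in male 6, Procr and Plaur in male 5, and Plau in male 4. The coefficient of variation within a group was lowest for Tfpi (1.6% and 2.51%) and reached 27.7% for F3 in the libraries labelled male and 22.1% for Plau in those labelled female. With 3 libraries a group these patterns are descriptive.

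Other genes of clotting and fibrinolysis came from lists of 66 genes, of which 48 were in the table and 41 tested. Of these, 12 were called higher and 21 lower (80.5% called, against 69.3% of all genes), with a median log2 fold change of -0.23. Liver-derived plasma factors were scarce: F2 and Fgg had 3 reads or fewer in every library, and Fga (0.736 ± 0.314 against 0.0415 ± 0.0719) and Fgb (0.954 ± 0.165 against 0.0442 ± 0.0766; SD, n = 3) were under the filter. F5, the cofactor of factor X, was at 91.8 ± 7.14 against 14.5 ± 1.67 (SD, n = 3), which is -2.58 on the log2 scale. F8, the cofactor carried by Vwf, was low but higher in the libraries labelled female, at 1.79 ± 0.302 against 3.77 ± 0.230 (log2 fold change 0.78). F13a1, the fibrin cross-linking enzyme, was under the filter at 0.621 ± 0.147 and 0.401 ± 0.10.

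Of the 4 protease-activated receptors, 3 were lower and 1 higher in the libraries labelled female. F2r, the main thrombin receptor of endothelium, was at 769 ± 87.8 against 351 ± 17.6 (SD, n = 3), which is -1.13 on the log2 scale. F2rl2 fell from 5.31 ± 0.816 to 0.240 ± 0.0848 (log2 fold change -2.34, or -4.47 with edgeR). F2rl1, which is cleaved by the tissue factor complex, was weak but higher, at 0.783 ± 0.186 against 4.09 ± 0.692 (log2 fold change 1.51, or 2.37 with edgeR).

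Of 5 other anticoagulants tested, 3 were lower and 2 higher. Serpine2, a surface inhibitor of thrombin and urokinase, fell from 640 ± 97.4 to 74.7 ± 7.02 (SD, n = 3), which is -3.07 on the log2 scale. Pros1, the cofactor of activated protein C, was lower (275 ± 3.10 against 156 ± 1.94, log2 fold change -0.82), in contrast to Thbd and Procr. Gas6, its relative, had a log2 fold change of -1.36. Anxa5, which covers procoagulant phospholipid, was higher (1.08), as was Tfpi2 (2.57), a matrix inhibitor of plasmin and tissue factor.

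Of 6 tested genes of the plasminogen system, 2 were higher and 1 lower. Anxa2, the plasminogen and Plat receptor, was higher (1419 ± 128 against 2041 ± 55.6, log2 fold change 0.53), together with its partner S100a10 (1.06). Mrc2, a partner of the urokinase receptor, was lower (-2.53). Lrp1, a receptor that clears plasminogen activators, was not called (-0.34, limma adjusted p 0.0602), but was without male 4 (-0.16, 0.0138) or male 5 (-0.45, 0.025), with the replicate block (0.0401), with edgeR (0.0462) and with DESeq2 (0.0248). Serpinb2, a serpin that inhibits urokinase, was at 407 ± 68.1 against 389 ± 34.3 (SD, n = 3) and was not called (-0.06, limma adjusted p 0.706), but was without male 4 (-0.20, 0.0209). The count of 3 called genes was thus 5 without male 4.

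Of 5 tested genes of the vitamin K cycle and factor export, 3 were lower and 0 higher, with Lman1, the export receptor of factors V and VIII, at -0.51, while Mcfd2 (0.13) and Vkorc1l1 (0.19) were not called. Mcfd2 was called higher under quantile normalization (0.24) and Vkorc1l1 without male 6 (0.29). Of 5 phospholipid genes, 4 were higher, among them the flippase Atp11a (0.57) and its subunit Tmem30a (0.30), and the scramblase Ano6 was lower (-0.22), a call lost under quantile normalization (-0.10), with the replicate block and without female 4. Of 8 genes of heparan sulfate, which binds antithrombin, 4 were lower and 1 higher. Sdc4, a core protein, had a log2 fold change of -1.12. Ext2 (-0.17) was not called under quantile normalization (-0.06, adjusted p 0.346 by limma) or with the replicate block (0.0644), and Hs2st1 (0.27) was not called with edgeR (0.0509), DESeq2 (0.0524) or without male 5 (0.107). Both were lost without female 4, which left 3 of the 5 calls, and both together with Gpc1 (-0.43), another core protein, were lost without male 6, female 5 or female 6, which left 2.

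**Figure D4:**
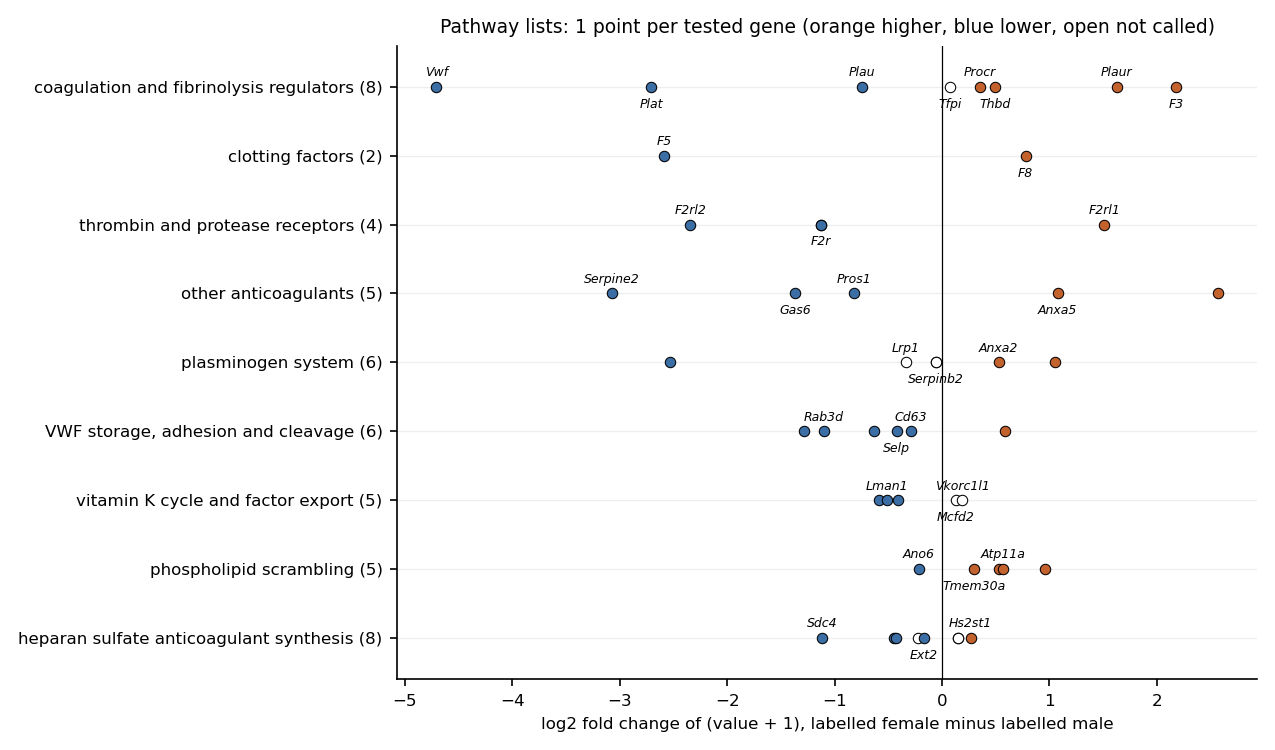
Log2 fold change of (value + 1), labelled female minus labelled male (horizontal axis), with 1 point per tested gene in each list (number tested in brackets); orange is called higher, blue called lower and open not called. The 8 regulators span -4.71 to 2.18, and the thrombin receptor and VWF storage lists lie mostly left of 0.

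Of 13 transcription factors known to act on genes of this group, 11 were lower and 2 higher in the libraries labelled female, with a median log2 fold change of -1.33. Jun, a subunit of AP-1, was at 594 ± 116 against 75.7 ± 1.87 (SD, n = 3), which is -2.94 on the log2 scale. Hif1a (-2.18) and Epas1 (-2.02), subunits of the hypoxia-inducible factors, were lower as well. The 2 called higher were Egr1 (25.1 ± 10.7 against 55.1 ± 4.41, log2 fold change 1.17) and Rela, a subunit of NF-kB (0.28). Nfkb1, another NF-kB subunit, was lower by more (171 ± 33.8 against 93.6 ± 4.69, log2 fold change -0.85). Whether these factors act on the 8 genes in these cells was not tested.

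Markers of other cell types also moved with the label. Of 9 tested mesothelial markers, 7 were higher and 2 lower, with Msln at 19.4 ± 1.97 against 332 ± 29.6 and Krt19 at 461 ± 47.8 against 116 ± 20.2 (SD, n = 3). The 10 listed in the table summed to 531 to 623 against 647 to 666, and Upk3b had 0 reads in every library labelled male. Of 13 tested stellate, fibroblast and mural markers, 4 were higher and 9 lower (the 14 listed in the table summed to 2896 to 3729 against 3504 to 4208), with Acta2 at 78.6 ± 47.9 against 1694 ± 187 and Col3a1 at 1266 ± 249 against 226 ± 18.9. Sinusoidal markers were lower in 3 of 3 tested genes (the 10 listed in the table summed to 492 to 532 against 8.64 to 10.8), mostly Lyve1 (498 ± 24.8 against 4.98 ± 0.566) and Stab1 (15.7 ± 2.41 against 1.95 ± 0.306). Clec4g and Fcgr2b, which mark sinusoidal endothelium, had 3 reads or fewer in every library. The part of these cell types in the differences of F3, Thbd, Procr and Plaur was not tested.

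Macrophage markers and most hepatocyte markers were low, while the cholangiocyte list held abundant genes. Of 11 macrophage markers in the table, 7 had 3 reads or fewer in every library, among them C1qa and Tyrobp, and the 11 summed to 7.55 to 10.1 against 13.2 to 15.8, mostly Cd68 and Csf1r, both called higher. Of 2 tested hepatocyte markers, Trf (91.0 ± 8.37 against 55.8 ± 5.11) and Ahsg (7.77 ± 2.16 against 0.0147 ± 0.0255), both were lower, and the 8 listed in the table summed to 88.5 to 108 against 50.4 to 59.9. Of 5 tested cholangiocyte markers, 4 were lower and 1 higher, led by Spp1 (1368 ± 380 against 376 ± 42.9) and Sox9 (353 ± 50.8 against 66.3 ± 8.08), with sums over the 7 listed in the table of 1241 to 2018 against 416 to 504, while Epcam had 11 reads or fewer in every library. Lymphocyte markers were not analysed here.

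**Figure D5:**
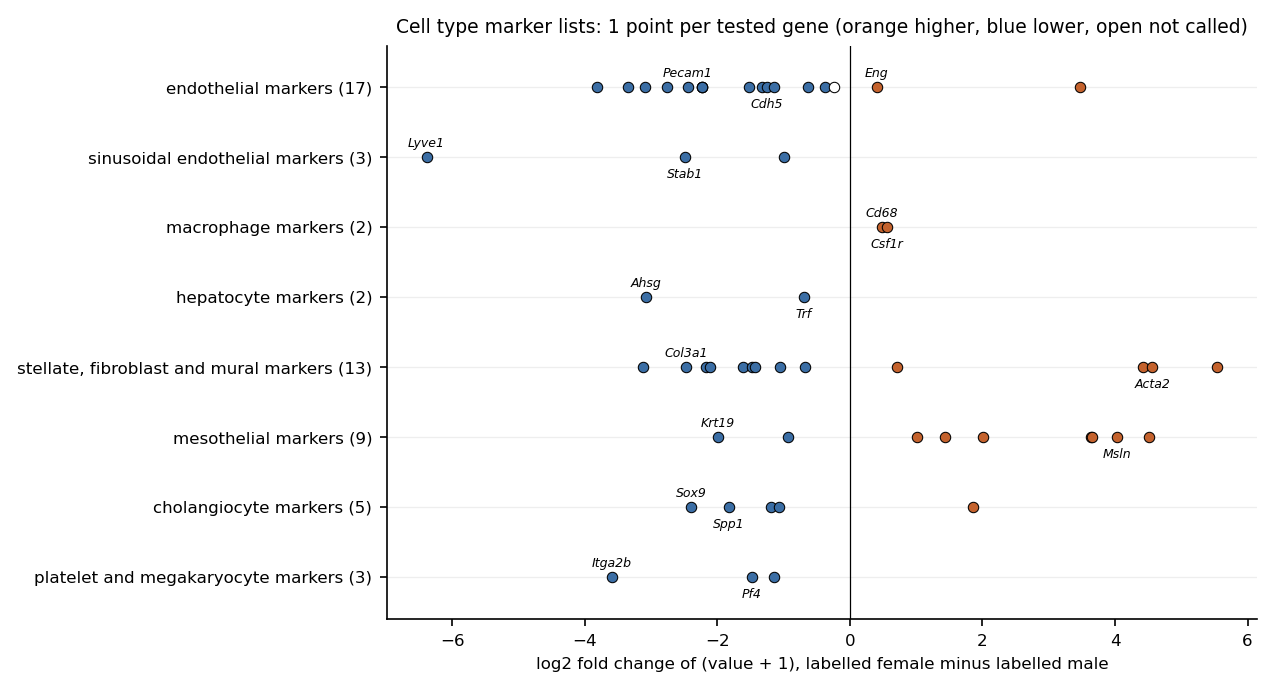
Log2 fold change of (value + 1), labelled female minus labelled male (horizontal axis), with 1 point per tested marker of each cell type (number tested in brackets); orange is called higher, blue called lower and open not called. Endothelial markers lie mostly left of 0 (Pecam1 at -2.44) and mesothelial markers mostly right (Msln at 4.03).

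For each regulator, the genes with the most similar profile over the 6 libraries were found among 8976 genes with a mean of at least 10, by the root mean square distance between centred log2(value + 1) profiles. Nearest to F3 were Atoh8 (distance 0.115) and Mat2a (0.124), and nearest to Plaur were Ano1 (0.0521) and Znhit6 (0.0605). Nearest to Vwf were Cldn11 (0.107) and Aqp1 (0.151), and nearest to Plat were C1qtnf1 (0.0358) and Loxl1 (0.0506). Thbd lay nearest Nme2 (0.0261) and Gtf3a (0.0320), Procr nearest Naa40 (0.0281) and Srm (0.0406), Tfpi nearest E2f4 (0.0113) and Psmd11 (0.0156), and Plau nearest Itga9 (0.106) and Pcdh19 (0.114). These distances mostly reflect the difference between the groups and describe likeness over 6 libraries only.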

How the data were processed

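The deposited signal values are whole read counts that the authors divided by 1 factor per library: dividing each column by its lowest value over 0 gave whole reads, within 0.001, for 100% of values. The submitters' processing notes name Bowtie2, RSEM, edgeR and the build mm39, with no roles. Recovered reads summed to 22303270 to 31189363 per library. Per the file headers, the authors also gave a signed fold change (a score here) and, as deposited p-value columns, a p and its false discovery rate. All 6 columns were matched by title to samples.

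Here limma 3.58.1 in R 4.3.3 (eBayes with trend) was run on log2(value + 1) for genes that reached 1 in 3 or more libraries (2 or more where a library was left out), with Benjamini-Hochberg adjustment over all tested genes and a threshold of 0.05. Fold changes on this scale understate the change of low genes. edgeR 4.0.16 and DESeq2 1.42.0 on recovered reads were alternatives. The count test (edgeR) called 8975 of 13199 genes and limma 8704 of 12568. Scripts were tested on simulated data.

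The 8 genes and all lists were chosen with earlier results of these data known. Named were the 8 genes, F2r and Pros1, the 3 most abundant genes of each pathway or factor list, the 2 most abundant of each marker list, sex-linked genes and the 2 nearest profiles. Adamts13, Tfpi2, S100a10, Mrc2, Pecam1, Ptprb, Tie1, Egfl7, Egr1, Rela, Nfkb1, Gpc1, Upk3b, Epcam, Fga, Fgb and markers at 0 or nearly so were named after their values were seen. Lengths and shared sequence came from GENCODE M21 (GRCm38), which differs from the authors' build, so the only coordinates given are those of the RefSeq promoter windows in GRCm38.p6. At most 0.54% of a regulator's 50-mers (Vwf) occurred in another gene, and no annotated gene overlapped any of the 8. List genes without a row were not analysed here, and a gene of the plasminogen list is not reported here.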

Additional observations from a re-analysis of the deposited data

How the results depend on the processing

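Over 14 alternatives (13 for Vwf, which fell under a filter of at least 1 in every library), F3, Thbd, Procr, Vwf, Plat, Plau and Plaur kept their direction and call. Tfpi was not called except under quantile normalization (0.17, limma adjusted p 0.0265). A further minimum of 1 for the size of the log2 fold change left 4 of the 8 regulators and 2589 genes in all. Each fit without 1 library called 7 of the 8, and 7808 to 9642 genes in all, the highest without male 4. Their log2 fold changes ran from 1.93 to 2.33 for F3, 0.44 to 0.54 for Thbd, 0.26 to 0.44 for Procr, -4.76 to -4.65 for Vwf, -2.75 to -2.66 for Plat, -0.89 to -0.59 for Plau, 1.56 to 1.71 for Plaur and 0.054 to 0.090 for Tfpi.

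Replicate numbers are not taken as pairs: deviations of same-numbered libraries correlated at -0.09, -0.03 and -0.17. With the replicate block 8314 genes and 7 of the 8 regulators were called. For 58 other tested genes named with a level or difference, 807 values were recomputed (Tie1, Egfl7 and Nfkb1 were left out). Of these values, 775 kept direction and call, 19 lost and 8 gained a call, and 5 changed sign. These were Ddx3y without male replicate 5 (0.13), where fits without 1 library ran from -0.21 to 0.13, and Serpinb2 under quantile normalization (0.0066) and without male 5, male 6 or female 6, where fits without 1 library ran from -0.20 to 0.025. The cause was not tested. With no filter or with DESeq2, which test more genes, 5 clotting factors, 4 hepatocyte and 4 macrophage markers were called, against 2 of each. A filter of 1 in every library left 1 protease receptor, 1 hepatocyte and 5 mesothelial markers called, against 4, 2 and 9. Vwf, at 9 to 12 reads in the libraries labelled female, is the regulator that depth limits most.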
